A study of Mus musculus with 16 samples.

Results

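The 34 genes called constitutive proteasome subunits here were chosen by symbol from the 13459 genes measured in mouse hippocampus. They are the 14 genes of the 20S core (Psma1 to Psma7 and Psmb1 to Psmb7) and 20 genes counted with the 19S cap (Psmc1 to Psmc6 and Psmd1 to Psmd14). Among the latter, Psmd5, Psmd9 and Psmd10 encode chaperones of cap assembly. All 34 had a probe, 25 of them 1 and 9 several, and all 44 probes were well above background on 16 of 16 arrays. The 4 groups were male SAM/P-8 mice fed CCH, SAM/P-8 mice on control feed, SAM/R-1 mice fed CCH and SAM/R-1 mice on control feed, with 4 one-colour arrays each. SAM stands for senescence-accelerated mouse, and the labels give AKR/J as the background of both strains. CCH is coral calcium hydride, given as 0.1% of the CE-2 rodent feed for 8 weeks to mice 8 weeks old at the start, and control mice ate CE-2 alone. The study asked how CCH changes hippocampal gene expression in this model of accelerated senescence. The labels do not say whether replicates were separate mice, so p-values refer to the spread among these arrays alone, which may be technical.

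The proteasome degrades proteins that carry ubiquitin chains. Its 20S core is a barrel of outer alpha rings, which gate the entrance, and inner beta rings, of which Psmb5, Psmb6 and Psmb7 carry the chymotrypsin-like, caspase-like and trypsin-like active sites. The 19S cap binds the substrate, removes the ubiquitin chain and threads the unfolded protein into the core with a ring of ATPases, Psmc1 to Psmc6. Psmd4 is a ubiquitin receptor of the cap and Psmd14 its deubiquitinase, while Psmd5, Psmd9 and Psmd10 are chaperones that help assemble the cap. Neurons depend on the proteasome for protein turnover at synapses, and falling proteasome activity has been studied in brain ageing.

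Promoter windows of RefSeq, build GRCm38.p6, covered 250 bases before to 50 after the start of 28 of the 34 genes. Psmb1, Psmb2, Psmb7, Psmc3, Psmd3 and Psmd7 were not matched. The windows of Psmd10, Psmd1 and Psmb3, which differed between the strains, and of the catalytic subunit Psmb5 are shown 5′ to 3′ with matches to the searched motifs in capitals, on either strand. Psmd10 lies at chrX:140956662-140956961 on the minus strand, Psmd1 at chr1:86064369-86064668 on the plus strand, Psmb3 at chr11:97703184-97703483 on the plus strand and Psmb5 at chr14:54617946-54618245 on the minus strand.
Psmd10: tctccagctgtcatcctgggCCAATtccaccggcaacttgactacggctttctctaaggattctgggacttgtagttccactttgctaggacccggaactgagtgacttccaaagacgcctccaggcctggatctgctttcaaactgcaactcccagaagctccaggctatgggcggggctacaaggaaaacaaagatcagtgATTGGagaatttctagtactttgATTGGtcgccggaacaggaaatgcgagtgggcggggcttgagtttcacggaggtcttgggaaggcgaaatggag
Psmd1: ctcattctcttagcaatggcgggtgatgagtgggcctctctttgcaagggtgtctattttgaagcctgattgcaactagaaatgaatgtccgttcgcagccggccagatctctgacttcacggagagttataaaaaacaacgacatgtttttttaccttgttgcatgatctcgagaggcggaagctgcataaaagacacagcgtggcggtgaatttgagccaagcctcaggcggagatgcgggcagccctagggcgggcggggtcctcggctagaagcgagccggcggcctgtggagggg
Psmb3: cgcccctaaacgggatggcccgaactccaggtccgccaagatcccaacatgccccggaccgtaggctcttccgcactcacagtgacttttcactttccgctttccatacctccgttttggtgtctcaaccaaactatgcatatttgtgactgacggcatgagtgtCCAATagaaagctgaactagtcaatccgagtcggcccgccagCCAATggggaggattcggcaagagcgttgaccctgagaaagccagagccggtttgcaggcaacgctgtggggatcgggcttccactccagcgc
Psmb5: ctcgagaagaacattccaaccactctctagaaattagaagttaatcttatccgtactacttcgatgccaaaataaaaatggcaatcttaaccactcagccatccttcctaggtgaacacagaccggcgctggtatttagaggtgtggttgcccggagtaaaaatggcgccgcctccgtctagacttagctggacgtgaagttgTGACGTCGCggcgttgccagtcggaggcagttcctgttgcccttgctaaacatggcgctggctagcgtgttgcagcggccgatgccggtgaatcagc
Psmd10 held the CCAAT box 230, 47 and 24 bases before the start, and Psmb3 held it 85 and 43 bases before. Psmb5 held the antioxidant response element TGACNNNGC 47 bases before the start, and the Psmd1 window held none of the 4 motifs. The antioxidant response element, which Nrf factors bind, was in 5 of 28 member promoters (17.9%), namely Psmb5, Psmb6, Psmc6, Psmd9 and Psmd12, against 16.8% of 10738 promoters of tested genes. CCAAT was in 11 of 28 (39.3%) against 42.7%, and the E-box CACGTG in 2 of 28 (7.14%) against 11.4%. The ETS site CCGGAAG was in 10 of 28 (35.7%) against 17.8%, with 1 of these genes in the alpha ring (Psma6), none in the beta ring, and the others in the cap. Of the beta ring only Psmb3, Psmb4, Psmb5 and Psmb6 were searched, too few to compare core and cap on this site. Matches on both strands were counted, and they describe letters only.

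Levels are log2 processed signals minus the 75th percentile of the array, and a log2 difference compares the same probe between groups. The subunits were bright probes, 28 of 34 lying above the 75th percentile of gene brightness. They varied little among replicates: the pooled SD within groups had a median of 0.0765 over the 34 members, lay between 0.0332 for Psmb6 and 0.121 for Psmd13, and had a median of 0.111 over all genes. Much of this spread was shared between members. Replicate 1 of SAM/P-8 control was the lowest array of its group for 28 of 34 subunits, and replicate 2 the highest for 20. Replicate 4 of SAM/P-8 CCH was the lowest of its group for 21 subunits. In SAM/R-1 control, replicate 3 was the lowest for 21 subunits and replicate 4 the highest for 22.

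**Figure D1:**
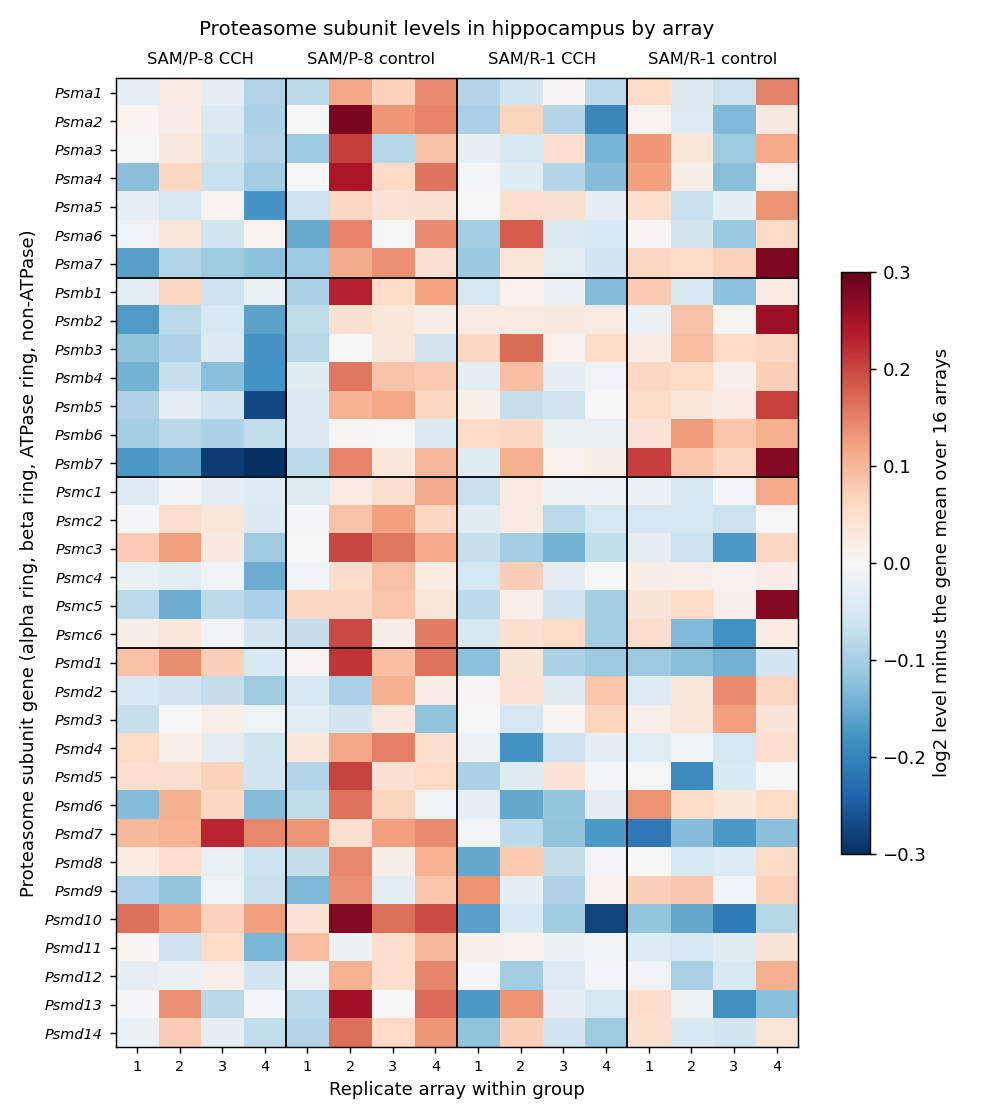
Log2 level of each of the 34 subunits (rows, by sub-complex) on the 16 arrays (columns, by group), minus the mean of the gene over all arrays. Whole columns are pale red or blue, such as replicate 1 of SAM/P-8 control, which was the lowest of its group for 28 of 34 subunits, while Psmd7 and Psmd10 are red on the SAM/P-8 arrays and blue on the SAM/R-1 arrays.

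All 8 of 8 markers of hippocampal excitatory neurons were well above background on every array. SAM/P-8 CCH replicate 4 stood apart in striatum markers, with a mean centred log2 level of 3.97 over 6 genes. Its 3 fellow arrays had -0.43 to 0.19, SAM/P-8 control arrays -0.79 to -0.13, SAM/R-1 CCH arrays -0.33 to 0.00 and SAM/R-1 control arrays -0.95 to 0.30. On SAM/P-8 CCH replicate 4 the oligodendrocyte marker score was 0.63 and the hippocampal neuron score -0.44. All 6 striatum markers were well above background on every array of SAM/P-8 CCH, and 5 of 6 on every array of SAM/P-8 control. Values without this array are given beside the calls and the subunit medians that use it, but not beside the medians of marker lists. Endothelial markers, 6 of 6 well above background on every array, moved with strain, with centred scores of 0.16 to 0.49 on SAM/P-8 CCH arrays, 0.17 to 0.66 on SAM/P-8 control arrays, -0.30 to -0.03 on SAM/R-1 CCH arrays and -0.70 to -0.23 on SAM/R-1 control arrays. Meninges markers, 6 of 6 well above background on every array, had a median strain difference of 0.60 on control feed, with overlapping arrays for all 6, and 0.62 on CCH, where 4 of 6 did not overlap. Microglia markers, also 6 of 6, had scores of 0.01 to 0.17 on SAM/P-8 CCH arrays and -0.15 to -0.01 on SAM/R-1 CCH arrays, with 3 of 6 called higher on CCH and 1 of 6 on control feed. Choroid plexus markers, 6 of 6 well above background on every array, varied widely within every group. Their score was -3.22 on SAM/P-8 CCH replicate 3 and 0.86 to 1.01 on its fellow arrays. It was -1.89 on SAM/P-8 control replicate 4 (fellow arrays 1.01 to 1.74) and -1.23 on SAM/R-1 control replicate 4 (0.29 to 1.44). SAM/R-1 CCH replicates 2 and 3 had -2.86 and -2.13, and replicates 1 and 4 had 0.95 and 0.92. The part of these markers in the strain and CCH results was not tested. In bulk tissue fewer cells of a type and less RNA per cell cannot be told apart. Each slide held the arrays of 1 group only, and the effects of slide and group cannot be told apart.

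On control feed, 3 of the 34 subunits differed between the strains, and all 3 were cap genes that were higher in SAM/P-8. They were the assembly chaperone Psmd10, also known as gankyrin, the lid subunit Psmd7, which pairs with the deubiquitinase Psmd14, and Psmd1, a large scaffold of the base. No core subunit passed the threshold. Of all genes 12.8% differed, 6.16% higher and 6.66% lower, a share that 3 of 34 does not exceed.

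Psmd10 had log2 levels of 0.03, 0.27, 0.16 and 0.19 in SAM/P-8 control, against -0.13, -0.16, -0.22 and -0.09 in SAM/R-1 control. Every SAM/P-8 array lay above every SAM/R-1 array, and the difference was 0.31 ± 0.06 (SE, 1.24-fold, limma adjusted p = 0.0024). Psmd7 had log2 levels of 2.57, 2.48, 2.56 and 2.58 in SAM/P-8 control, against 2.22, 2.31, 2.26 and 2.31 in SAM/R-1 control. These arrays did not overlap either, with a difference of 0.27 ± 0.05 (SE, 1.21-fold, limma adjusted p = 0.00128). The other Psmd7 probe gave a difference of 0.03 (limma adjusted p = 0.731), so the call rests on 1 of its 2 probes. Psmd1 had log2 levels of 2.16, 2.37, 2.24 and 2.31 in SAM/P-8 control, against 2.04, 2.02, 2.01 and 2.10 in SAM/R-1 control. Its arrays did not overlap, and the difference was 0.23 ± 0.06 (SE, 1.17-fold, limma adjusted p = 0.0156). Without replicate 2 of SAM/P-8 control, the highest Psmd1 array, the difference was 0.20 and the limma adjusted p 0.0516. The Psmd1 call was also lost with each array scaled to its median (0.24, limma adjusted p = 0.0539) and with normexp background correction (0.21, 0.0554). Psmd10 and Psmd1 have 1 probe each, and whether a strain variant lies under any of these probes was not tested.

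The remaining cap genes ranged from -0.10 for Psmd3, a lid subunit (limma adjusted p = 0.175), to 0.17 for the ATPase Psmc3 (0.0982). In the ATPase ring 5 of 6 differences were above 0, with Psmc5 lowest at -0.04, though its other probe gave 0.16 (limma adjusted p = 0.118). The probes of Psmc5, Psmd2 and Psmd12 differed in sign, 3 of the 9 genes with several probes. The ubiquitin receptor Psmd4 differed by 0.10 (limma adjusted p = 0.218) and Psmd14 by 0.07 (0.507). In the alpha ring the differences ran from -0.07 for Psma7 to 0.17 for Psma2 (limma adjusted p = 0.518 and 0.108). In the beta ring 5 of 7 lay below 0, from -0.11 for Psmb6, whose SAM/P-8 arrays all lay below the SAM/R-1 arrays (limma adjusted p = 0.0764), to 0.10 for Psmb1. The catalytic subunit Psmb7 differed by -0.11 (limma adjusted p = 0.306) and Psmb5 by -0.02 (0.878). The median over the 34 subunits was 0.05, with 13 below 0, beside a median of -0.01 over all genes. Among genes of equal brightness 18.9 of 34 would lie below 0. The median over the subunits was 0.0746 without SAM/P-8 control replicate 1, 0.0785 without SAM/R-1 control replicate 4, 0.0234 and 0.0257 without SAM/P-8 control replicates 2 and 4, and 0.0264 without SAM/R-1 control replicate 3.

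**Figure D2:**
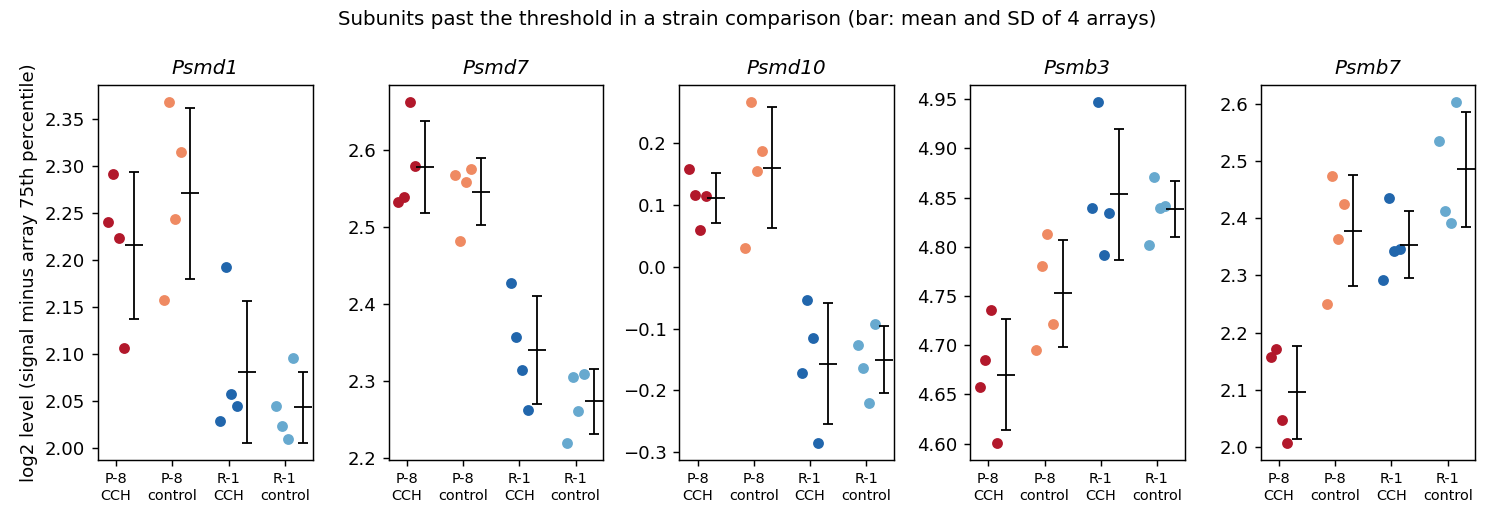
Log2 level (signal minus the 75th percentile of the array) of the 5 subunits past the threshold in a strain comparison, 1 point per array, with the mean and SD of 4 arrays as a bar, in the groups SAM/P-8 CCH, SAM/P-8 control, SAM/R-1 CCH and SAM/R-1 control. The 8 SAM/P-8 arrays lie above the 8 SAM/R-1 arrays for Psmd7 and Psmd10, and the SAM/P-8 CCH arrays are the lowest group mean for Psmb3 and Psmb7.

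On CCH feed, 4 subunits differed between the strains, in both directions. Psmd7 and Psmd10 were again higher in SAM/P-8, and the beta-ring genes Psmb3, a structural subunit, and Psmb7, the trypsin-like catalytic subunit, were lower. Of all genes 12.7% differed, 6.13% higher and 6.52% lower. The strain comparisons on the 2 feeds share no arrays and no slide, but they share the strains. In each of them the groups compared lay on different slides.

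Psmd10 had log2 levels of 0.16, 0.12, 0.06 and 0.11 in SAM/P-8 CCH, against -0.17, -0.05, -0.12 and -0.28 in SAM/R-1 CCH. The difference was 0.27 ± 0.06 (SE, 1.20-fold, limma adjusted p = 0.00781), and the arrays did not overlap. With each array scaled to its median instead, it was 0.22 and the limma adjusted p 0.0609, and without SAM/P-8 CCH replicate 4 it was 0.27 (0.0176). Psmd7 had log2 levels of 2.53, 2.54, 2.66 and 2.58 in SAM/P-8 CCH, against 2.43, 2.36, 2.31 and 2.26 in SAM/R-1 CCH. The difference was 0.24 ± 0.05 (SE, 1.18-fold, limma adjusted p = 0.00411), again without overlap, and its other probe gave 0.09 (limma adjusted p = 0.264). The Psmd7 difference was 0.24 without SAM/P-8 CCH replicate 4 (limma adjusted p = 0.00956). Psmd1 differed by 0.13 (limma adjusted p = 0.139), but it passed the threshold with array weights (0.18, 0.0138) and after quantile normalization (0.18, 0.0269).

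Psmb7 had log2 levels of 2.16, 2.17, 2.05 and 2.01 in SAM/P-8 CCH, against 2.29, 2.43, 2.34 and 2.35 in SAM/R-1 CCH. Every SAM/P-8 array lay below every SAM/R-1 array, with a difference of -0.26 ± 0.06 (SE, 0.836-fold, limma adjusted p = 0.0159). Without SAM/P-8 CCH replicate 4 it was -0.23 (limma adjusted p = 0.045). Psmb3 had log2 levels of 4.66, 4.69, 4.74 and 4.60 in SAM/P-8 CCH, against 4.84, 4.95, 4.79 and 4.83 in SAM/R-1 CCH. These did not overlap, and the difference was -0.18 ± 0.05 (SE, 0.881-fold, limma adjusted p = 0.0191). The Psmb3 call was lost without SAM/P-8 CCH replicate 4 (-0.16, limma adjusted p = 0.0503) and without SAM/R-1 CCH replicate 2 (-0.15, 0.0555). The other Psmb3 probe gave -0.06 (limma adjusted p = 0.581), and the mean of both probes -0.12 (0.151).

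The other catalytic subunits gave -0.11 for Psmb6 (limma adjusted p = 0.0818) and -0.08 for Psmb5 (0.406), and 6 of 7 beta-ring differences lay below 0, with Psmb1 highest at 0.03. Alpha-ring differences ran from -0.08 for Psma7 to 0.05 for Psma2. In the cap the ATPases ran from -0.05 for Psmc4 to 0.13 for Psmc3 (limma adjusted p = 0.208; 0.0488 after quantile normalization), Psmd4 gave 0.07, Psmd14 0.04, and Psmd2, the second large scaffold of the base, -0.10 (0.258). The other Psmd2 probe gave 0.12 (limma adjusted p = 0.16) and the other Psmd14 probe 0.25 (0.0998). The probes of Psmc4, Psmc5, Psmd2 and Psmd12 differed in sign, 4 of the 9 genes with several probes. The median over the 34 was 0.01, with 16 below 0, where 23.9 would be at equal brightness. Its direction is not settled. With arrays scaled to their median it was -0.0373, while the median of all probes moved too, from -0.0182 to -0.0618. The median over the 34 lay below 0 without SAM/P-8 CCH replicate 2 (-0.012), SAM/R-1 CCH replicate 1 (-0.0066) or SAM/R-1 CCH replicate 4 (-0.0124). Without SAM/P-8 CCH replicate 4 it was 0.0226.

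**Figure D3:**
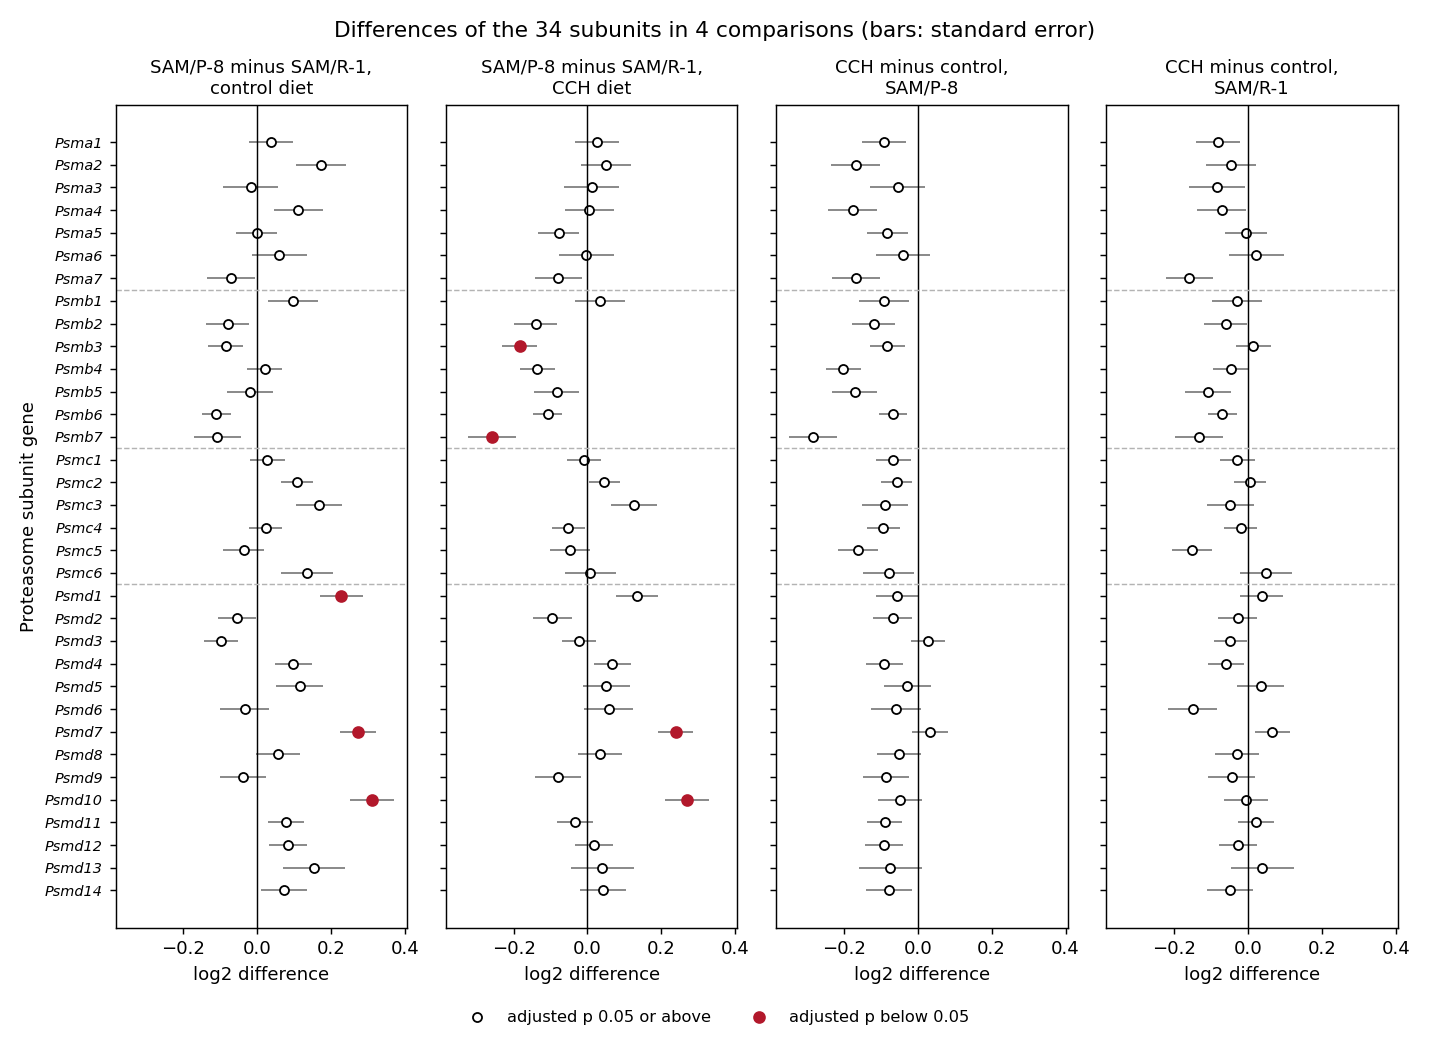
Log2 difference of each of the 34 subunits (rows, by sub-complex, broken lines between them) in 4 comparisons, with the standard error of the limma fit as a bar; filled red points have an adjusted p below 0.05. In SAM/P-8 the CCH differences of 32 of 34 subunits lie left of 0 with none past the threshold, and the strain differences of the beta ring lie mostly left of those of the cap.

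The balance of 20S core and 19S cap genes on an array did not overlap between the strains on either feed. It did overlap on control feed once the assembly chaperones were left out, and on both feeds once the 5 called subunits were left out. The core score, the mean centred log2 level of its 14 genes, averaged 0.05 ± 0.08 in SAM/P-8 control and 0.05 ± 0.06 in SAM/R-1 control, while the cap score averaged 0.06 ± 0.06 in SAM/P-8 control and -0.02 ± 0.04 in SAM/R-1 control (SD, n = 4 each). On CCH feed the core averaged -0.08 ± 0.04 in SAM/P-8 and -0.01 ± 0.04 in SAM/R-1, and the cap 0.00 ± 0.03 in SAM/P-8 and -0.04 ± 0.02 in SAM/R-1. Core minus cap, taken within each array, removes what an array shares over all subunits, and its pooled SD was 0.0243, against 0.0483 for the score of all subunits.

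On the SAM/P-8 arrays core minus cap was -0.09, -0.06, -0.09 and -0.08 with CCH and -0.05, 0.02, -0.02 and -0.01 with control feed. On the SAM/R-1 arrays it was 0.03, 0.05, 0.04 and -0.00 with CCH and 0.07, 0.07, 0.03 and 0.10 with control feed. Every SAM/P-8 array lay below every SAM/R-1 array of the same feed, and every SAM/P-8 CCH array below every SAM/P-8 control array, while the SAM/R-1 groups overlapped. The differences of the group means were -0.08 between the strains on control feed, -0.11 on CCH, -0.06 for CCH in SAM/P-8 and -0.04 for CCH in SAM/R-1. Without SAM/P-8 CCH replicate 4 the strain difference on CCH was -0.1057 and the CCH difference in SAM/P-8 -0.062. Without the assembly chaperones Psmd5, Psmd9 and Psmd10 the ranges were -0.08 to -0.06 on SAM/P-8 CCH arrays, -0.06 to 0.04 on SAM/P-8 control arrays, -0.01 to 0.05 on SAM/R-1 CCH arrays and 0.02 to 0.09 on SAM/R-1 control arrays, so that the strains overlapped on control feed. With Psmb3, Psmb7, Psmd1, Psmd7 and Psmd10 left out, a choice made after their values were seen, the means were -0.04 ± 0.01 on SAM/P-8 CCH arrays, 0.00 ± 0.03 on SAM/P-8 control arrays, 0.01 ± 0.03 on SAM/R-1 CCH arrays and 0.04 ± 0.03 on SAM/R-1 control arrays (SD, n = 4 each), and the strains overlapped on both feeds. With these subunits left out, the SAM/P-8 CCH arrays (-0.0559 to -0.0255) also overlapped the SAM/P-8 control arrays (-0.0338 to 0.0405). Relative to genes of equal brightness, the core medians were 0.01 on control feed and -0.00 on CCH, and the cap medians 0.10 on control feed and 0.08 on CCH. No p is given for these scores, because the members were chosen with results known.

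**Figure D4:**
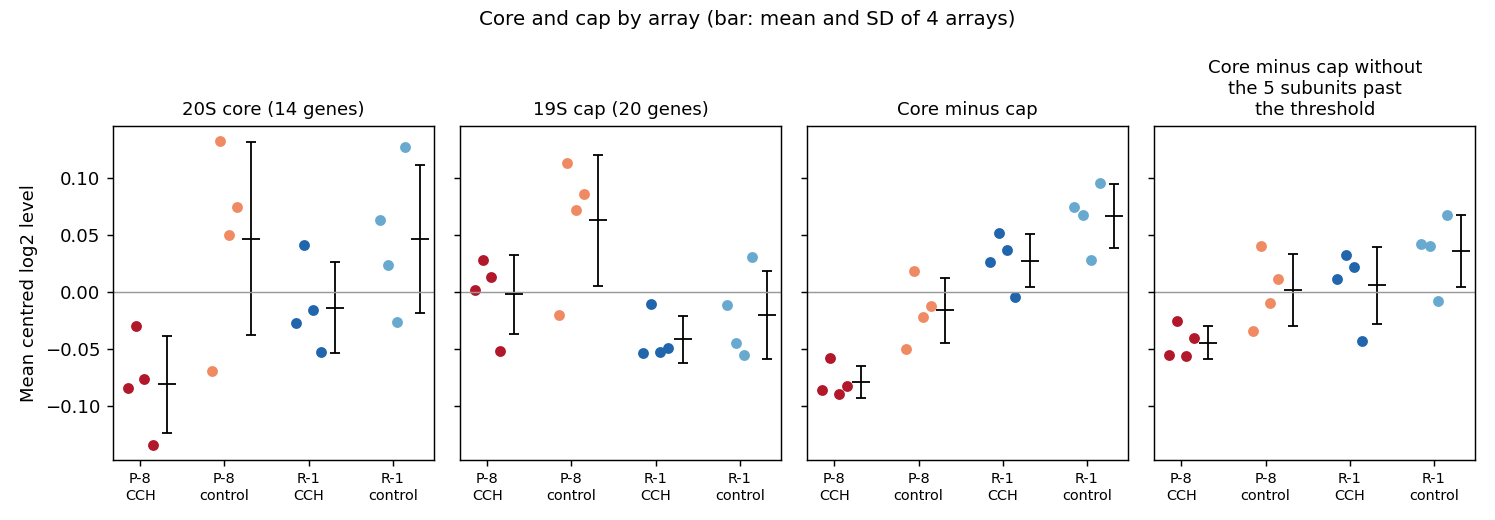
Mean centred log2 level of the 14 core genes, of the 20 cap genes, their difference, and the difference without the 5 subunits past the threshold, 1 point per array, with the mean and SD of 4 arrays as a bar, in the groups SAM/P-8 CCH, SAM/P-8 control, SAM/R-1 CCH and SAM/R-1 control. Core minus cap separates the strains on each feed in the third panel, and the strains overlap on each feed in the last.

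CCH feeding in SAM/P-8 gave log2 differences below 0 for 32 of 34 subunits, with a median of -0.08, but none passed the threshold. At an unadjusted p under 0.05 there were 7 of 34 with limma, against 18.5% of all genes, and 0.788% of all genes passed the adjusted threshold. The exceptions above 0 were Psmd7 at 0.03 and Psmd3 at 0.03. All 14 core genes and 18 of 20 cap genes lay below 0. Genes of equal brightness lay below 0 too: 24.9 of 34 would lie below 0, with a median of -0.07, and 22 of the 34 subunits lay below the median of their own brightness class. The 82 cytoplasmic ribosomal protein genes had a median of -0.14 and the 81 respiratory chain and ATP synthase genes one of -0.14, both below that of the subunits. Cell marker lists moved both ways in this comparison, with none of their genes called. Below 0 lay 7 of 8 hippocampal excitatory neuron markers (median -0.21), 6 of 6 choroid plexus markers (-0.58) and the 3 red blood cell markers measured (-1.12). Above 0 lay 6 of 6 striatum (1.28), 5 of 6 oligodendrocyte (0.13), and 4 of 6 inhibitory neuron (0.10), astrocyte (0.05) and meninges markers (0.17). Microglia and endothelial markers had 3 of 6 on each side. The hippocampal neuron score was -0.44 on SAM/P-8 CCH replicate 4 and -0.13 to 0.10 on its fellow arrays. On replicate 4 the oligodendrocyte score was 0.63, the inhibitory neuron score 0.35 and the striatum score 3.97. On its fellow arrays they were -0.25 to -0.08, -0.21 to 0.01 and -0.43 to 0.19. The SAM/P-8 control arrays had -0.22 to -0.03, -0.22 to 0.09 and -0.79 to -0.13, in the same order. The red blood cell scores of SAM/P-8 control replicates 1 and 2 were 1.93 and 2.66, while those of replicates 3 and 4 were -0.14 and 0.07, and SAM/P-8 CCH arrays had -0.58 to 0.09. The median over the 34 subunits was -0.1098 without SAM/P-8 control replicate 1 and -0.0646 without replicate 2, and the part of these markers was not tested.

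The lowest values were in the beta ring. Psmb7 had log2 levels of 2.16, 2.17, 2.05 and 2.01 in SAM/P-8 CCH, against 2.25, 2.47, 2.36 and 2.43 in SAM/P-8 control. All CCH arrays lay below all control arrays, with a difference of -0.28 ± 0.06 (SE, limma adjusted p = 0.0579). Psmb4, a structural beta subunit, had log2 levels of 4.93, 5.01, 4.95 and 4.90 in SAM/P-8 CCH, against 5.04, 5.23, 5.16 and 5.15 in SAM/P-8 control, also without overlap (-0.20 ± 0.05, SE, limma adjusted p = 0.0658). Both passed the threshold without SAM/P-8 control replicate 1, at -0.33 for Psmb7 (limma adjusted p = 0.0352) and -0.24 for Psmb4 (0.0347). Without SAM/P-8 CCH replicate 4, which carried the striatum markers, they were -0.25 (limma adjusted p = 0.126) and -0.18 (0.131), and the median over the 34 subunits was -0.06 with 31 below 0.

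In the rest of the core, Psmb5 differed by -0.17 (limma adjusted p = 0.162), Psmb6 by -0.07 (0.365), and the alpha ring by -0.18 for Psma4 to -0.04 for Psma6 (0.179 and 0.809). Psmb5 was -0.12 (limma adjusted p = 0.323) without SAM/P-8 CCH replicate 4, its lowest array. The ATPase ring ran from -0.16 for Psmc5 (limma adjusted p = 0.141), whose other probe gave -0.03 (0.837), to -0.06 for Psmc2, and the non-ATPase subunits from -0.09 for Psmd12 to the 0.03 of Psmd7. Psmd4 gave -0.09 and Psmd14 -0.08 (limma adjusted p = 0.332 and 0.522). Psmb4, Psmb6, Psmb7, Psmc4 and Psmc5, 5 of 34, had all CCH arrays below all control arrays, beside 6.35% of all genes. The same held for 35 of the 82 ribosomal protein genes and 38 of the 81 respiratory chain and ATP synthase genes. The size of the shift depends on the scaling: the median over the 34 was -0.0182 with 24 below 0 after quantile normalization, and -0.1251 with 34 below 0 with arrays scaled to their median. The median of all probes was -0.0053 after quantile normalization, as in the main setting, and -0.048 with arrays scaled to their median. In 4 of the 9 genes with several probes, Psmb3, Psmd2, Psmd7 and Psmd14, the probes differed in sign, none past the threshold.

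**Figure D5:**
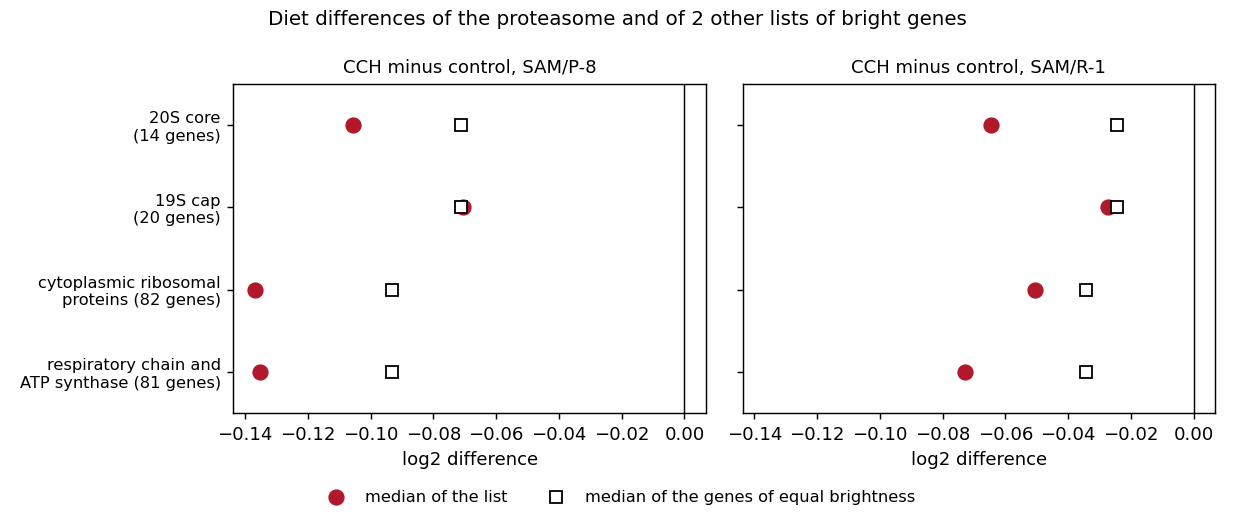
Median log2 difference between CCH and control feed (filled points) of the core, the cap, the ribosomal protein genes and the respiratory chain and ATP synthase genes, beside the median of genes of equal brightness (open squares), in SAM/P-8 and in SAM/R-1. The cap lies on its squares at -0.07 in SAM/P-8 and -0.03 and -0.02 in SAM/R-1, and the core lies to the left of its own, at -0.11 in SAM/P-8 and -0.06 in SAM/R-1.

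CCH feeding in SAM/R-1 gave a median of -0.04 over the 34 subunits, with 25 below 0 and none past the threshold. At an unadjusted p under 0.05 there were 3 of 34 with limma, against 11.2% of all genes, and 0.126% of all genes passed the adjusted threshold. At equal brightness 20.8 of 34 would lie below 0. The core median was -0.06 with 12 of 14 below 0, and the cap median -0.03 with 13 of 20 below 0. All 6 choroid plexus markers lay below 0 too (median -1.0029), as they did for CCH in SAM/P-8. None of the 6 was called, and their arrays overlapped.

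Psmc5, an ATPase, had log2 levels of 3.04, 3.14, 3.06 and 3.02 in SAM/R-1 CCH, against 3.16, 3.18, 3.14 and 3.40 in SAM/R-1 control. The difference was -0.15 ± 0.05 (SE, limma adjusted p = 0.331), and the other Psmc5 probe gave -0.01 (0.965). Psma7, an alpha-ring subunit, had log2 levels of 4.16, 4.30, 4.23 and 4.21 in SAM/R-1 CCH, against 4.33, 4.33, 4.34 and 4.55 in SAM/R-1 control (-0.16 ± 0.06, SE, limma adjusted p = 0.385). In both, replicate 4 of SAM/R-1 control was the highest array, and without it the differences were -0.09 for Psmc5, -0.10 for Psma7 and -0.0159 for the median of all 34. Psmb7 gave -0.13, Psmb5 -0.11, Psmb6 -0.07, Psmd4 -0.06 and Psmd14 -0.05, with limma adjusted p-values from 0.481 to 0.821. The sub-complexes ran from these lowest values up to 0.02 for Psma6, 0.01 for Psmb3, 0.05 for Psmc6 and 0.07 for Psmd7, with Psmd6, a lid subunit, lowest of the non-ATPase genes at -0.15. Psma7, Psmb5, Psmc5 and Psmd6 had all CCH arrays below all control arrays, 4 of 34 beside 5.65% of all genes. The same held for 1 of 82 ribosomal protein genes and 16 of 81 respiratory chain and ATP synthase genes.

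No subunit passed the threshold for a CCH response that differed between the strains, the interaction term of limma. At an unadjusted p under 0.05 there was 1 of 34, against 4.79% of all genes, and 0.134% of all genes passed the adjusted threshold. Psmb4 had the smallest p, with an interaction of -0.15 ± 0.07 (SE, limma adjusted p = 0.873), followed in the beta ring by Psmb7 at -0.15 (0.946), with Psmb5 at -0.06 and Psmb6 at 0.00. The alpha ring ran from -0.12 for Psma2 to 0.03 for Psma3, the ATPase ring from -0.13 for Psmc6 to -0.01 for Psmc5, and the non-ATPase subunits from -0.11 for Psmd13 to 0.09 for Psmd6, with Psmd4 and Psmd14 at -0.03 each. The 82 ribosomal protein genes had a median interaction of -0.10, with 77 below 0. For the 81 respiratory chain and ATP synthase genes it was -0.06, with 68 below 0. Genes as bright as the subunits had a median of -0.05. The median over the 34 was -0.06, with 30 below 0, where 23.6 would be at equal brightness. It was -0.0399 with 29 below 0 without SAM/P-8 CCH replicate 4 and -0.0342 with 27 below 0 without SAM/R-1 control replicate 3. After quantile normalization it was -0.017 with 20 below 0, and with normexp background correction -0.0039 with 18 below 0.

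Other genes of the pathway also differed between the strains, and their counts stand beside the 12.8% of all genes called on control feed and 12.7% on CCH. Of the immunoproteasome and tissue-specific subunits 4 of 5 were measured, and Psmb8 and Psmb9, catalytic subunits that replace Psmb5 and Psmb6 when interferon induces them, were higher in SAM/P-8. Psmb9 had log2 levels of -0.40, -0.25, -0.29 and -0.50 in SAM/P-8 control, against -1.15, -1.05, -1.05 and -1.15 in SAM/R-1 control. Those arrays did not overlap, and the difference was 0.74 ± 0.06 (SE, 1.67-fold, limma adjusted p = 6.64e-07), while Psmb8 gave 0.80 (4.88e-05). On CCH they were 0.67 and 0.77 (limma adjusted p = 2.15e-06 and 7.94e-05), and 0.65 and 0.74 without SAM/P-8 CCH replicate 4. Psmb10, which replaces Psmb7, gave -0.06 on control feed and -0.17 on CCH (limma adjusted p = 0.676 and 0.159). Psmg4, a chaperone of core assembly, was lower in SAM/P-8, with differences of -0.42 on control feed and -0.39 on CCH (limma adjusted p = 0.000232 and 0.000611), while Pomp, the maturation factor of the core, gave 0.01 and -0.11 with neither past the threshold. Of the 8 assembly chaperones measured, Psmg4 and Psmd10 passed on each feed. Psmg4 on CCH was -0.43 without SAM/P-8 CCH replicate 4 (limma adjusted p = 0.000265).

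Vcp, the p97 ATPase that extracts ubiquitinated proteins for degradation, was higher in SAM/P-8 by 0.46 on control feed and 0.34 on CCH (limma adjusted p = 2.71e-05 and 0.000615), the 1 of 7 genes of its list past the threshold. Its other probe gave 0.17 and 0.15 (limma adjusted p = 0.0411 and 0.0738), and without SAM/P-8 CCH replicate 4 Vcp on CCH was 0.36 (0.0009). On control feed the ubiquitin-activating enzyme Uba6 was higher by 0.30 (limma adjusted p = 0.00967), 1 of 6, with 0.29 for its other probe (0.0724). The ubiquitin receptors Rad23b at 0.24 and Adrm1 at -0.20 (limma adjusted p = 0.0334 and 0.0105) made 2 of 11. The other Rad23b probe gave -0.16 on control feed and -0.32 on CCH (limma adjusted p = 0.165 and 0.0091), and the other Adrm1 probe 0.01 on control feed, so neither call holds over both probes. Eif3a, of the translation initiation factor whose architecture resembles the lid, was higher by 0.18 (limma adjusted p = 0.0314), 1 of 13 genes of eIF3. Of the 5 activators and inhibitors, Psme3 differed by -0.16 on control feed and -0.18 on CCH, and Psme4 by -0.18 on CCH (limma adjusted p = 0.0494, 0.0366 and 0.0437). The other Psme4 probes gave -0.09 and -0.05 on CCH (limma adjusted p = 0.762 and 0.558), and the mean over its probes -0.11 (0.317). Without SAM/P-8 CCH replicate 4 the CCH-feed differences were -0.14 for Psme3 and -0.17 for Psme4 (limma adjusted p = 0.0938 and 0.0875). With 1 array left out, Psme3 kept its control-feed call in 2 of 16 fits and its CCH call in 10, Psme4 in 6, Rad23b and Eif3a in 10 each. None of 7 genes that control proteasome transcription, Nfe2l1 among them at 0.05 on control feed, passed in any comparison, nor did any of the 9 COP9 signalosome or 8 CCT chaperonin genes. Under CCH in SAM/P-8 the shuttle receptor Ubqln2 fell by 0.25 (limma adjusted p = 0.0447), kept in 4 of 16 fits with 1 array left out and lost without SAM/P-8 CCH replicate 4 (-0.23, 0.102), and no gene of these lists passed for CCH in SAM/R-1 or the interaction.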

How the data were processed

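RNA from the hippocampus was hybridised to 16 one-colour arrays in 4 groups, taken from the labels. The scanner output that the authors deposited for every array gives each spot's processed signal and the median signals of spot and local background as an intensity, made with Agilent Feature Extraction 9.5.3.1 per the file headers, together with flags of a kind other than a measurement per the file headers. The authors' own value table, deposited as log2 values with each probe centred, served as an alternative and correlated with the centred scanner values at 0.99978 or more on every array. Between 28920 and 33333 of 43379 non-control spots were well above background on an array. Precision is limited by how many arrays there were.

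The log2 processed signal minus the 75th percentile of the array's non-control spots was averaged over the spots of a probe, leaving out non-uniform and population-outlier spots. Of 41174 probes, 29009 were kept, each well above background on every array of 1 group or more. Probes were named through the RefSeq accession of each probe, and a gene was represented by its brightest probe, which gave 13459 genes. Group means were fitted to the 16 arrays with limma 3.58.1 (R 4.3.3; 12 residual and 2.32 prior degrees of freedom), and the Benjamini-Hochberg adjustment ran over all kept probes, with calls at an adjusted p under 0.05. The fit was tested on simulated data. A score is the mean of the genes of a list, each centred on its mean over the arrays. Genes of equal brightness are the tested genes in the same of 20 classes of mean level.

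The members and the gene lists were chosen with earlier results of these data known. In each comparison the text names the members past the threshold or, where there are none, the 2 with the smallest p, the catalytic subunits, Psmd4, Psmd14, and the extremes of each sub-complex; of the other lists it names the genes past the threshold. Further genes were named after their values were seen where a sample or a pair of probes stood apart. Alternatives were other scalings, background correction, probe rules, the authors' table, array weights, a replicate block, and leaving out each array.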

Additional observations from a re-analysis of the deposited data

Results flagged for a closer look

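In each group of 4 arrays the array farthest from the others was compared with the range of the group, over the 34 subunits and 4 scores. Of 152 such groups 9 had an array whose gap to the next one was above Dixon's critical value for 4 samples, and chance flags about 1 in 20 groups. Of these, 4 were replicate 4 of SAM/R-1 control, which was the highest array for Psma7 at a log2 level of 4.5496 (the others 4.3254 to 4.3368), for Psmb5 at 4.189 (4.0093 to 4.0382), for Psmc5 at 3.3973 (3.1373 to 3.1796) and for Psmd11 at 4.0798 (3.9905 to 4.0046). Replicate 3 of the same group was low for Psmd9 at -0.4451 (-0.3633 to -0.3502). In SAM/P-8, replicate 4 of CCH was low for Psmc4 at 3.5141 (3.6327 to 3.6502), and replicate 1 of control was low for Psma5 at 4.6964 (4.8041 to 4.8238). In SAM/R-1 CCH, replicate 2 was high for Psmb4 at 5.1654 (5.0468 to 5.0645) and for the score of the 19S cap at -0.0105 (-0.0535 to -0.0488).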

How the results depend on the processing

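Besides the main values, 8 other settings and 16 fits that each left out 1 array were run. Of the counts of subunits past the threshold, the medians over the subunits and the core minus cap differences, 111 values under other settings and 239 with an array left out stayed within the bounds set for them, and no direction of a called subunit reversed. On control feed the 3 subunits that differed between the strains became 6 with array weights and 5 after quantile normalization. They became 2 with arrays scaled to their median (Psmd1 lost), 1, Psmd10, with normexp background correction, and 2 to 4 with an array left out. On CCH feed 4 became 5 with array weights (Psmd1 gained), 5 after quantile normalization (Psmd1 and Psmc3 gained, Psmb3 lost), 3 with arrays scaled to their median (Psmd10 lost), 3 with the mean over probes (Psmb3 lost) and 2 with normexp, and 3 to 4 with an array left out. For CCH in SAM/P-8 the count of 0 became 2 (Psmb4 and Psmb7) with array weights, and 0 to 2 with an array left out. The median over the 34 subunits moved to -0.0182 after quantile normalization for CCH in SAM/P-8, to -0.1000 with normexp for CCH in SAM/R-1, where normexp also gave a median of all probes of 0.0974, against -0.0111 in the main setting, and for the interaction to -0.1162 with arrays scaled to their median and to -0.0039 with normexp. Scaling to the median moves all probes of an array alike. With it the median of all probes for the interaction was -0.0538, against 0.0015 in the main setting. The cause of the moves with quantile normalization and normexp was not tested. Core minus cap kept its sign in all settings run, between -0.0956 and -0.0715 for the strains on control feed.

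Replicates of the same number were compared after removing the group means: their correlations averaged 0.0062 over 24 pairs, with 6 above 0.1. Those of different number averaged -0.0019 over 72 pairs, with 21 above 0.1. No pairing by number was seen, though such averages cannot exclude it. The replicate number was also the position on the slide for all 16 arrays. With the replicate block the same subunits passed in every comparison, 3 and 4 in the strain comparisons, and the probes past the threshold numbered 3755 against 4002 on control feed and 132 against 250 for CCH in SAM/P-8. A slide block was not run, because each slide held 1 group. The scanner values of these subunits lay well above background on every array, so their precision is limited by 4 arrays per group.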
